A study of Homo sapiens with 6 samples.

Results

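Retinoic acid metabolism and its nuclear receptors were followed through 10 genes of the 27754 counted in RNA sequencing of T47D cells, a human breast cancer line of luminal type. The genes were taken by symbol, and they were gathered around CYP26A1 because its transcript was far more abundant in hypoxia, so the comparison of hypoxia with normoxia is given for them as a description and without p-values. There were 3 libraries from control cells kept at 20% O2 (normoxia) and 3 from cells kept in a chamber at 0.5% O2 for 48 h (hypoxia), all from the same parental line grown in RPMI medium with serum. The oxygen level is that of the sample labels, and the text of the study gives a somewhat higher one. Replicates carry the numbers 1 to 3 in the labels, and the study describes its data as coming from independent experiments. The errors measure the spread between these libraries. Values of single libraries are listed in the order of the replicate numbers.

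Retinol (vitamin A) enters cells with the help of the membrane receptor STRA6 and is oxidized to retinaldehyde and then irreversibly to retinoic acid. Retinoic acid is carried to the nucleus by CRABP2, where it binds retinoic acid receptors (RARs) paired with retinoid X receptors (RXRs), and it is destroyed by the CYP26 cytochromes P450. Several genes that take up, reduce or degrade retinoids are themselves known targets of the receptors. Those that reduce or degrade retinoids make the pathway self-limiting. In luminal breast cancer cells the pathway is known for restraining growth.

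The libraries held between 32989104 and 89883409 counts. By these totals, without TMM, a count of 3 equalled 0.0334 to 0.0909 CPM (counts scaled to library size), a floor that covers counting error only. Levels of genes are given as TMM-normalized CPM, on which 3 counts were 0.0969 in normoxia replicate 3 and 0.0328 in hypoxia replicate 3. Replicate 3 of both conditions stood apart from the other libraries on a principal component with 10.4% of the variance, with 395 and 1001 counts of VIM, a mesenchymal filament gene, against 7 to 35 counts elsewhere. Markers of luminal breast epithelium summed to between 14157 and 18346 CPM in normoxia and between 10280 and 13571 CPM in hypoxia, with all 10 genes detected. In the test described below, PGR, ESR1, SPDEF, GATA3 and FOXA1 were called lower, while KRT8, KRT18, KRT19, EPCAM and CDH1 were not called. PGR fell from 1249 ± 298 to 164.0 ± 28.9 CPM and ESR1 from 271.4 ± 26.4 to 74.6 ± 0.598 CPM (SD, n = 3). Leukocyte markers summed to between 2.88 and 3.17 CPM in normoxia and between 9.78 and 11.6 CPM in hypoxia, of which PTPRC and CD3E held at most 5 and 10 counts in any library. Fibroblast markers summed to 79.2 to 112 CPM, highest in replicate 3 of each condition, basal markers to 14.8 to 30.7 CPM and endothelial markers to at most 0.656 CPM. COL1A1 (76.9 to 99.1 CPM) held most of the fibroblast sum and ACTA2 most of the basal sum, and neither was called. THY1 and PDGFRB of the fibroblast list and KRT17 and MYLK of the basal list were called higher in hypoxia, and no marker of these lists was called lower. The part of these other cell types' markers in the results was not tested. VEGFA, a known hypoxia-responsive gene, rose from 39.2 ± 6.51 to 803.7 ± 35.8 CPM (SD, n = 3).

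All 10 genes passed the filter on low counts, 3 of them (CYP26A1, RARB and STRA6) only through the hypoxia libraries. In the quasi-likelihood test of edgeR over 15657 genes, at an adjusted p under 0.05, 6 were called higher in hypoxia (CYP26A1, STRA6, RARB, DHRS3, RXRA and RARA) and 2 lower (CYP26B1 and CRABP2), while RARG and RDH10 were not called. Among all genes tested, 30.4% were called higher and 29.1% lower, or 59.5% in either direction. The CPM ranges of the 3 and 3 libraries did not overlap for the same 8 genes, compared with 34.9% of all genes with hypoxia above and 32.4% with hypoxia below. The median log2-fold change (log2 FC, hypoxia over normoxia) of the 10 genes was 0.43, and that of all genes 0.028. These shares are a description, since CYP26A1 chose the list.

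**Figure D1:**
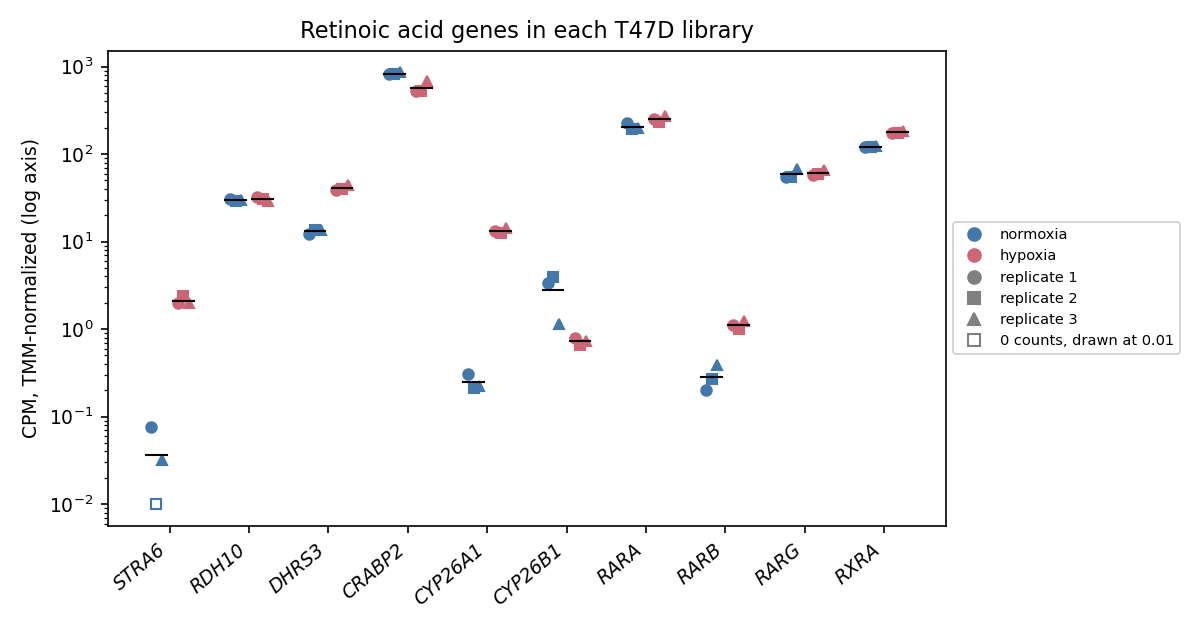
TMM-normalized CPM (log axis) of each retinoic acid gene in each library, with normoxia in blue, hypoxia in red, a marker shape for each replicate number, an open square at 0.01 for the STRA6 library with 0 counts, and a black line at the mean of 3 libraries. CYP26A1 and STRA6 show the widest gaps between conditions, CYP26B1 is lower in hypoxia, and RARG and RDH10 overlap.

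CYP26A1, which hydroxylates all-trans retinoic acid and so removes it, lies on chromosome 10 (94833232 to 94837641, forward strand, GRCh37, 8 merged exons). It held 12, 8 and 7 counts in the normoxia libraries, and 532, 461 and 1304 counts in the hypoxia libraries. All hypoxia libraries were far above all normoxia libraries, and the lowest hypoxia level was 12.6 CPM against a highest normoxia level of 0.304 CPM. The mean went from 0.248 ± 0.0485 CPM to 13.3 ± 0.849 CPM (SD, n = 3), with log2 FC 5.72 ± 0.19 (SE). The ratio of the pooled counts, scaled by library size, was 54.4 with an exact 95% interval of 37.3 to 82.7 that covers counting error only. The log2-fold change was 5.61 without replicate 3 of both conditions, and it stayed between 5.60 and 5.92 whichever library or replicate number was left out.

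The sequences below are shown because retinoic acid receptors are known to bind direct repeats of a 6-base half-site, and CYP26A1 and RARB are textbook examples of such genes. The half-site was taken as AGGTCA or as a variant of it (AGTTCA or otherwise GGGTCA or finally GGTTCA). A DR5, which is any of these repeated in the same direction with 5 bases between them, was searched on both strands in the RefSeq promoter windows of 250 bases before to 50 bases after each start. Both sites are printed on the strand of their gene, 5′ to 3′, with the half-sites in capitals:
CYP26A1: aaagaTGAACTttgggTGAACTaattg
RARB: ggtagGGTTCAccgaaAGTTCActcgc
In CYP26A1 the repeat reads in the direction opposite to the gene, at 94833560 to 94833576 of chromosome 10 (GRCh37), which is 90 to 74 bases before the downstream of its RefSeq starts. It lies inside the first counted exon, that of the transcripts with the upstream start, and 71 bases before the next counted exon. In RARB it reads in the direction of the gene, at 25469701 to 25469717 of chromosome 3 (GRCh37), 53 to 37 bases before a start and outside the counted exons, with the next counted exon 37 bases away. A DR5 of these letters was present in 31 of 35116 promoter windows of all genes (0.0883%), and in 2 of the 22 windows of 9 of the listed genes. RDH10 had no entry in the table of windows. The windows of CYP26B1, CRABP2, DHRS3, STRA6, RARA, RARG and RXRA did not hold these letters, which says nothing of sites elsewhere. A DR2, the same repeat with 2 bases between the half-sites, was searched in the same way. It was present in 14 of 35116 windows (0.0399%) and in 0 of the 22 windows of the listed genes.

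The letters ACGTG and GCGTG, which are the core of the sites bound by hypoxia-inducible factors, were searched in the same windows. ACGTG was present in both CYP26A1 windows and in 21.4% of all windows, so its presence is common. GCGTG was present in 36.5% of all windows and in neither CYP26A1 window. In the downstream CYP26A1 window ACGTG (capitals) lies at 94833595 to 94833599 of chromosome 10, 55 to 51 bases before the start and on the strand of the gene:
CYP26A1: aggtaACGTGggcag
In the upstream CYP26A1 window it occurs at 2 places, each read on both strands as the palindrome CACGTG. One window each of CRABP2, RARA and RARB also held ACGTG.

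**Figure D2:**
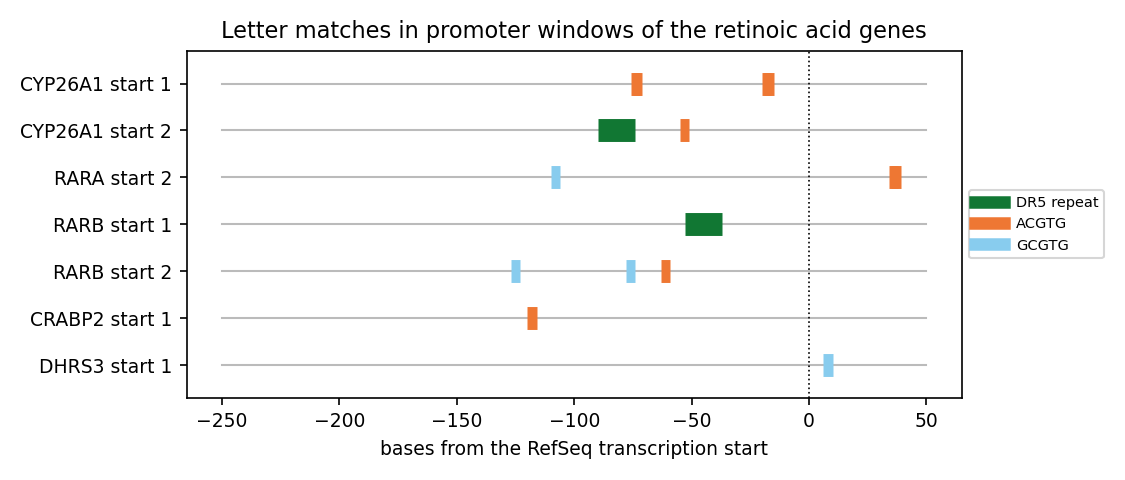
Letter matches in the promoter windows of the retinoic acid genes that held any, with bases from the RefSeq start on the x axis, 1 row per start and colored bars for the DR5 repeat and for ACGTG and GCGTG on either strand. The DR5 repeats of CYP26A1 and RARB both end within 100 bases before a start.

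CYP26B1, the related enzyme that also degrades retinoic acid, moved the other way. It lies on chromosome 2 (72356367 to 72374991, reverse strand). It held 133, 146 and 35 counts in the normoxia libraries, and 32, 24 and 67 counts in the hypoxia libraries. Normoxia replicate 3 was well below the other normoxia libraries, at 1.13 CPM against 3.37 and 3.92 CPM, and still above the highest hypoxia library at 0.791 CPM. The mean fell from 2.81 ± 1.48 to 0.727 ± 0.0674 CPM (SD, n = 3), with log2 FC -1.95 ± 0.43 (SE). Without replicate 3 it was -2.32. The call was lost without replicate 1 of both conditions (-1.86) and without replicate 2 of both (-1.58). CYP26C1, the remaining enzyme of the family, had 0 counts in 5 libraries and 3 counts in hypoxia replicate 3, which was at the floor.

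The family therefore changed in makeup. Levels are compared between genes as CPM per kilobase of counted exon. CYP26A1 made up 14.2%, 9.15% and 26.9% of the summed CYP26 level in normoxia replicates 1, 2 and 3, and 96.8%, 97.2% and 96.9% in the hypoxia replicates. The summed level of the family was 0.717 ± 0.329 CPM per kilobase in normoxia and 5.55 ± 0.360 in hypoxia (SD, n = 3). In normoxia most of a small amount of CYP26 transcript was CYP26B1, and in hypoxia nearly all of a larger amount was CYP26A1.

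**Figure D3:**
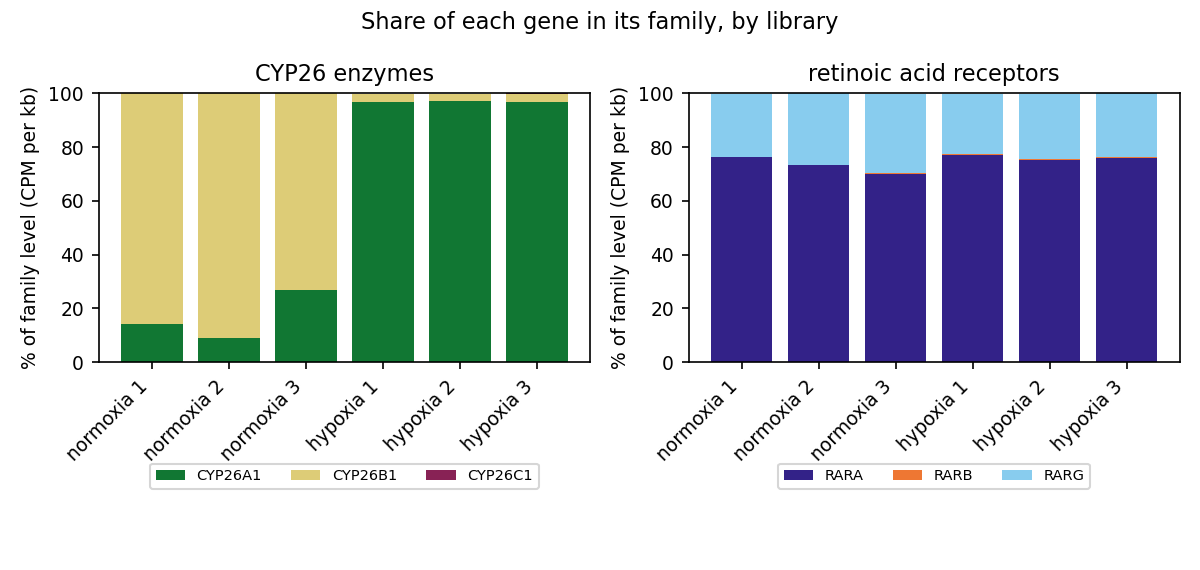
Share of each gene in the summed level of its family (CPM per kilobase, in percent) in the 6 libraries, with CYP26 enzymes on the left and retinoic acid receptors on the right. CYP26A1 rises from between 9.15% and 26.9% in normoxia to about 97% in every hypoxia library, and RARA stays between 70.1% and 77.1% of the receptor level.

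CRABP2 carries retinoic acid to the receptors and was the most abundant of the listed transcripts. It lies on chromosome 1 (156669400 to 156675608, reverse strand). It was at 813.8, 812.1 and 859.0 CPM in the normoxia libraries, and at 528.0, 520.2 and 681.1 CPM in the hypoxia libraries. Hypoxia replicate 3 was the highest of its condition but below every normoxia library. The mean fell from 828.3 ± 26.6 to 576.4 ± 90.7 CPM (SD, n = 3), with log2 FC -0.52 ± 0.11 (SE), and -0.63 without replicate 3. The call was lost without replicate 1 of both conditions (-0.48). CRABP2 held between 19029 and 62256 counts per library.

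CRABP1, a close relative of CRABP2 from the wider list below, had 6, 9 and 3 counts in normoxia and 30, 36 and 39 in hypoxia. The mean was 0.164 ± 0.0732 CPM in normoxia and 0.717 ± 0.279 CPM in hypoxia (SD, n = 3), and the ratio of the pooled counts scaled by library size was 3.73 (exact 95% interval 2.25 to 6.53, counting error only). All normoxia libraries were under the minimum count of 10, so the gene entered the test only through the hypoxia libraries. FABP5, the other protein known to carry retinoic acid to nuclear receptors, held at most 2 counts per library. It has near-identical processed copies in the genome and how reads matching several places were handled is not given in the sources used here, so its level is uncertain.

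STRA6, the membrane receptor that takes up retinol from its plasma carrier, was close to absent in normoxia. It lies on chromosome 15 (74471808 to 74502046, reverse strand). It held 3, 0 and 1 counts in the normoxia libraries, all at or under the floor, and 80, 87 and 180 counts in the hypoxia libraries. The hypoxia libraries were at 1.97 to 2.38 CPM, so the conditions were far apart although the level stayed low. From 4 pooled counts in normoxia and 347 in hypoxia, the ratio scaled by library size was 55.4, with an exact 95% interval of 21.5 to 205 for counting error only. The fitted log2 FC of 5.73 ± 0.50 (SE) ranged from 5.06 to 6.97 with libraries or replicate numbers left out, and it depends on the prior count because the normoxia libraries held so few counts.

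Retinol and retinaldehyde are interconverted by RDH10, which oxidizes retinol and feeds retinoic acid synthesis, and DHRS3, which reduces retinaldehyde back to retinol and is a known target of retinoic acid. DHRS3 lies on chromosome 1 (12627939 to 12677737, reverse strand). It held 12.1, 13.7 and 13.7 CPM in the normoxia libraries and 38.4, 40.3 and 44.7 CPM in the hypoxia libraries. Every hypoxia library was above every normoxia library by more than the spread within a condition. The mean rose from 13.2 ± 0.947 to 41.1 ± 3.26 CPM (SD, n = 3), with log2 FC 1.65 ± 0.10 (SE), and 1.61 without replicate 3.

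RDH10, on chromosome 8 (74206837 to 74237520, forward strand), held 30.8, 29.0 and 29.7 CPM without hypoxia and 32.5, 31.0 and 28.8 CPM with it. The conditions overlapped, and the log2 FC was 0.042 ± 0.084 (SE). Per kilobase, the level of DHRS3 was 0.726, 0.879 and 0.855 times that of RDH10 in normoxia replicates 1, 2 and 3, and 2.19, 2.41 and 2.89 times in hypoxia replicates 1, 2 and 3. The reductase transcript was thus the less abundant of the pair in every normoxia library and the more abundant in every hypoxia library.

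**Figure D4:**
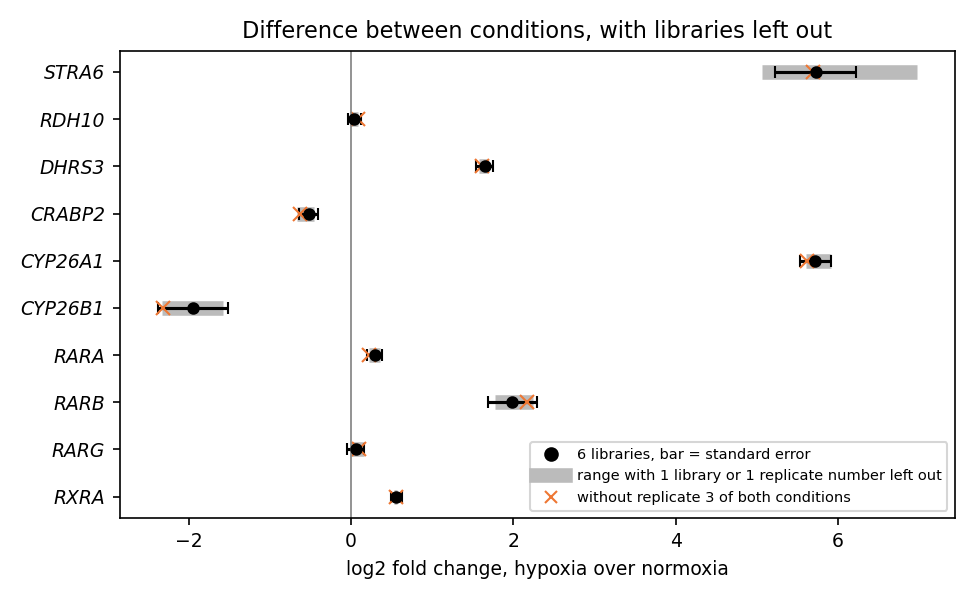
Log2-fold change (hypoxia over normoxia) of each gene in all 6 libraries (black, bar for the standard error), its range with 1 library or 1 replicate number left out (grey) and its value without replicate 3 of both conditions (orange cross). CYP26A1 and STRA6 lie above 5 in every fit, and CYP26B1 and CRABP2 lie below 0 in every fit.

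The retinoic acid receptors are ligand-activated transcription factors encoded by RARA, RARB and RARG. RARB, itself a known retinoic acid target, lies on chromosome 3 (24870814 to 25639422, forward strand). It held 8, 10 and 12 counts in the normoxia libraries and 45, 37 and 113 counts in the hypoxia libraries. The hypoxia libraries, at 1.01 to 1.24 CPM, were all above the normoxia libraries, at 0.203 to 0.388 CPM. The mean rose from 0.286 ± 0.0937 to 1.12 ± 0.113 CPM (SD, n = 3), with log2 FC 1.99 ± 0.30 (SE), and 2.17 without replicate 3. Its counted exons share 27 bases with TOP2B on the other strand, which held between 6879 and 20543 counts per library. The strand setting of the counting is not given in the sources used here, and the part of TOP2B reads in the RARB counts was not tested.

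RARA, on chromosome 17 (38465423 to 38513895, forward strand), was the most abundant of the receptors. It was at 224.7, 194.3 and 199.8 CPM in the normoxia libraries and at 252.7, 233.8 and 271.2 CPM in the hypoxia libraries. The conditions did not overlap, but the gap between them was narrow. The log2 FC was 0.29 ± 0.090 (SE), and the call was lost in 5 of the 9 fits that omitted a library or a replicate pair, where the log2-fold change was between 0.23 and 0.36. Its exons share 672 bases with the antisense gene RARA-AS1, which held at most 3 counts in any library.

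RARG, on chromosome 12 (53604350 to 53626040, reverse strand), held between 54.3 and 66.7 CPM in normoxia and between 58.1 and 66.4 CPM in hypoxia. The conditions overlapped, with log2 FC 0.061 ± 0.10 (SE). Within the receptor family, RARA made up 73.3 ± 3.16% of the summed level per kilobase in normoxia and 76.1 ± 0.902% in hypoxia, and RARG 26.6 ± 3.12% and 23.5 ± 0.908% (SD, n = 3). RARB remained a trace component, at 0.112 ± 0.0368% and 0.370 ± 0.0114%.

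RXRA encodes the main partner with which the RARs bind DNA. It lies on chromosome 9 (137218309 to 137332432, forward strand). It was at 119.3, 120.2 and 123.1 CPM in the normoxia libraries and at 174.3, 175.0 and 184.6 CPM in the hypoxia libraries. The spread within each condition was small beside the gap between them. The mean rose from 120.9 ± 1.99 to 178.0 ± 5.75 CPM (SD, n = 3), with log2 FC 0.56 ± 0.067 (SE), and 0.55 without replicate 3. RXRB, the other RXR gene with more than a few counts, rose from 62.3 ± 2.76 to 74.8 ± 6.92 CPM, with log2 FC 0.27 ± 0.090 (SE) and adjusted p = 0.0342, and RXRG held at most 2 counts per library.

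The order of the levels per kilobase differed between the conditions. In normoxia the order of the means was CRABP2 (711.6 CPM per kilobase), RARA (47.3), RARG (17.1), RXRA (16.5), RDH10 (7.53), DHRS3 (6.16), CYP26B1 (0.616), CYP26A1 (0.100), RARB (0.0721) and STRA6 (0.00676). Neighbours whose ranges over 3 libraries overlapped were RARG and RXRA, and CYP26A1 and RARB. In hypoxia the order was CRABP2 (495.2 CPM per kilobase), RARA (57.9), RXRA (24.3), DHRS3 (19.2), RARG (17.9), RDH10 (7.75), CYP26A1 (5.38), STRA6 (0.395), RARB (0.282) and CYP26B1 (0.159). Only DHRS3 and RARG overlapped as neighbours in hypoxia.

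The other genes of the pathway came from a list of 75 genes, chosen by their known roles in retinoid handling, though with earlier results of these data known, so the shares below are a description. Of these, 55 passed the filter on low counts, 26 were higher in hypoxia (47.3% of those tested, compared with 30.4% of all genes) and 8 were lower (14.5%, compared with 29.1%). As shares of the whole list, 34.7% were higher and 10.7% lower. Among the 26 higher genes, 3 (LRAT, CRABP1 and HOXA3) were below the count minimum in at least 1 normoxia library. The median log2-fold change of the 55 genes was 0.34. The adjusted p-values below are from edgeR's quasi-likelihood test, and the errors of CPM are SDs of 3 libraries.

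Of 9 genes for retinol uptake, binding and storage, 4 rose, 2 fell and 3 were too low to test. As shares of the tested genes, 66.7% were higher and 33.3% lower, beside 30.4% and 29.1% of all genes. LRAT, which esterifies retinol for storage, held 3, 2 and 0 counts in normoxia, at or under the floor, and 34, 56 and 33 in hypoxia. It entered the test only through the hypoxia libraries, so its size is given from the pooled counts, whose ratio scaled by library size was 15.7 (exact 95% interval 6.56 to 49.3, counting error only). LRP2, an endocytic receptor for the plasma retinol carrier, rose by 1.84 on the log2 scale (SE 0.24, adjusted p = 0.000529). The intracellular retinol-binding protein gene RBP7 fell from 21.4 ± 0.0722 to 12.9 ± 1.12 CPM, with log2 FC -0.73 ± 0.10 (SE) and adjusted p = 0.000669. DGAT1, better known for triglyceride synthesis but able to esterify retinol, had log2 FC -0.80 ± 0.21 (SE) and adjusted p = 0.0112.

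Of 19 enzymes acting on retinol, retinaldehyde or carotenoids, 4 rose, 2 fell, 5 did not pass the test and 8 were too low to test. Among the tested enzymes, 36.4% were higher and 18.2% lower, beside 30.4% and 29.1% of all genes. AKR1C3 and RDH16 had log2 FC values of 1.95 and 1.56 (adjusted p = 0.00327 and 0.00108). RDH11, a retinaldehyde reductase, was the most abundant of those that fell. It went from 116.8 ± 7.71 to 54.2 ± 3.32 CPM, with log2 FC -1.11 ± 0.086 (SE) and adjusted p = 7.83e-05. RDH13, a mitochondrial relative, had log2 FC -0.32 (adjusted p = 0.0274). DHRS3 and RDH11, both reductases, thus moved in opposite directions.

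The retinaldehyde dehydrogenases make retinoic acid itself. ALDH1A3 was the only one of 3 with enough counts to test, with means of 23.8 ± 1.56 CPM (normoxia) and 23.3 ± 8.41 CPM (hypoxia), log2 FC -0.025 ± 0.23 (SE) and adjusted p = 0.930. It was at 16.7, 20.3 and 32.7 CPM in the hypoxia libraries, and replicate 3 was above all normoxia libraries while the other two were below them. ALDH1A1 held at most 2 counts and ALDH1A2 at most 1 count in any library.

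Of 13 corepressors and coactivators of the receptors, all were tested, and 5 rose, 1 fell and 7 did not pass the test. These shares were 38.5% higher and 7.69% lower, beside 30.4% and 29.1% of all genes. KAT2B, a histone acetyltransferase, rose by 1.02 on the log2 scale (SE 0.10, adjusted p = 0.000200), and TBL1XR1, a corepressor exchange factor, by 0.60 (SE 0.14, adjusted p = 0.00640). MED1, a Mediator subunit, had log2 FC -0.22 (adjusted p = 0.0309). Of 11 other receptors that pair with RXR, 3 rose, 2 fell, 4 did not pass the test and 2 were too low to test. Among the tested receptors, 33.3% were higher and 22.2% lower, beside the same 30.4% and 29.1% of all genes. The orphan receptor NR4A2 and the thyroid hormone receptor THRB had log2 FC values of 1.88 and 0.75 (adjusted p = 0.00152 and 0.000945). The thyroid hormone receptor THRA and the liver X receptor NR1H3 had log2 FC values of -0.46 and -0.36 (adjusted p = 0.00361 and 0.0190).

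Of 15 genes known to respond to retinoic acid in other cells, beside CYP26A1, RARB, DHRS3 and STRA6, 8 rose, 1 fell, 4 did not pass the test and 2 were too low to test. Among the tested genes of this group, 61.5% were higher and 7.69% lower, beside 30.4% and 29.1% of all genes. TGM2, tissue transglutaminase, rose from 1.44 ± 0.771 to 13.6 ± 1.56 CPM, with log2 FC 3.27 ± 0.32 (SE) and adjusted p = 0.000170. ICAM1, an adhesion molecule, rose from 11.2 ± 3.19 to 45.7 ± 9.37 CPM, with log2 FC 2.02 ± 0.23 (SE) and adjusted p = 0.000284. NR2F2, an orphan receptor, fell from 224.8 ± 44.9 to 151.2 ± 7.81 CPM, with log2 FC -0.57 ± 0.14 (SE) and adjusted p = 0.00812. Its relative NR2F1 did not pass the test. It was at 4.23, 3.198 and 29.6 CPM in the normoxia libraries and at 1.53, 1.34 and 7.47 CPM in the hypoxia libraries, lower in hypoxia within each of the 3 replicate numbers and highest in replicate 3 of both conditions. Many of these genes are known to respond to other signals too.

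**Figure D5:**
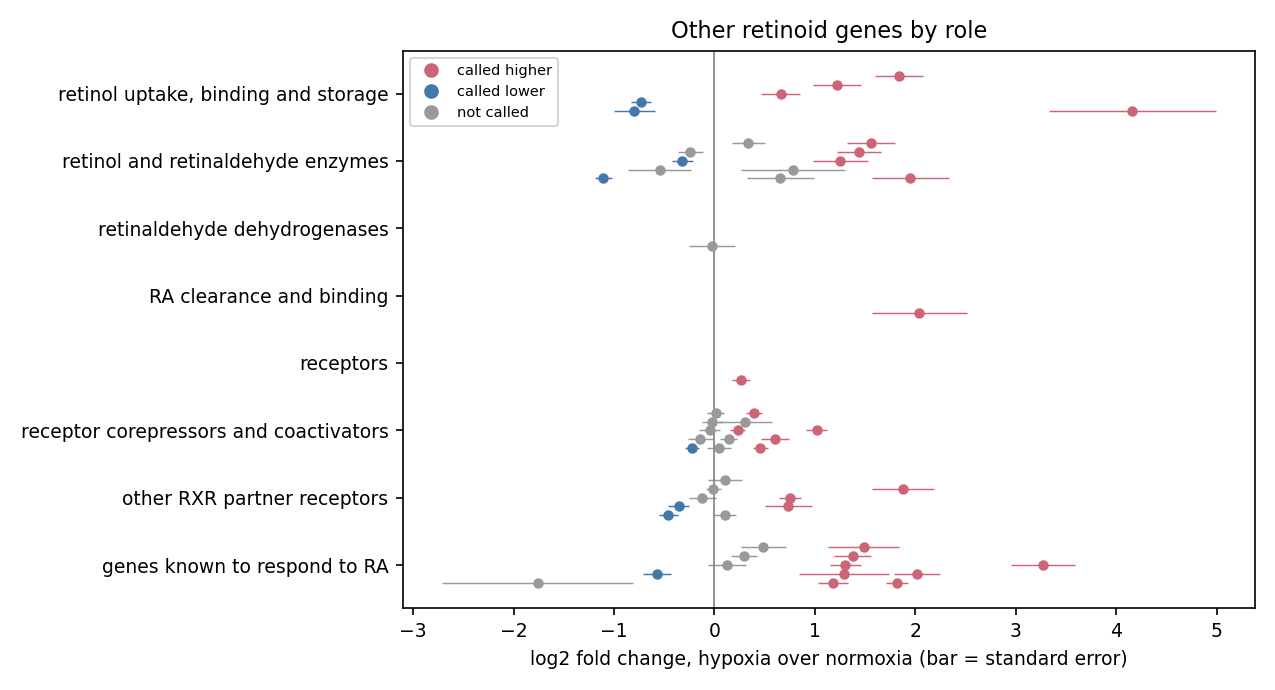
Log2-fold change (hypoxia over normoxia) of the 55 tested genes of the wider retinoid list, grouped by role on the y axis, with bars for the standard error. Red marks genes called higher, blue genes called lower and grey genes not called, and the red points outnumber the blue ones in every role that has any call.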

How the data were processed

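T47D cells were profiled by sequencing of stranded mRNA libraries. The authors trimmed adapters (Skewer), mapped to GRCh37 (STAR 2.5.2a) and assigned reads to RefSeq genes (featureCounts 1.5.1), and they deposited raw counts, with 1 file per library. The tool versions are from the submitters' processing notes. Strandedness of the counting and the handling of multi-mapped reads are not given in the sources used here.

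Counts were analysed with R 4.3.3 and edgeR 4.0.16. Genes were kept by filterByExpr (minimum count 10, minimum total 15) and tested with the quasi-likelihood test on all 6 libraries after TMM normalization, in a model of condition alone, with Benjamini-Hochberg adjustment at 0.05 over 15657 genes. The exact test of edgeR, named in the methods of the study, was among the alternatives. The statistics were tested on simulated data first. Simulated log2-fold changes of 1 and 2 were recovered for 71.7% and 93% of 99 and 100 genes. Of the calls, 8.38% were unchanged genes, and 1 gene was called where nothing was changed. The simulated libraries held no replicate effect, so they do not cover the pattern of replicate 3. Standard errors (SE) are the log2-fold change divided by the square root of the F statistic. CPM values other than the floor are TMM-normalized. Alternatives were DESeq2 1.42.0, other normalizations, no filter, the replicate number as a block, and libraries left out. Deviations from the condition means correlated across genes between same-numbered libraries (0.338, 0.422 and 0.575). Normoxia 2 with hypoxia 1 and normoxia 1 with hypoxia 2 correlated at 0.277 and 0.243, so numbers 1 and 2 were hardly told apart. Replicate 3 of either condition correlated at -0.376 to -0.466 with the other numbers of the other condition. The methods of the study speak of paired samples. The labels' numbers were therefore taken as pairs in the block and in leaving out replicate numbers. The main model did not use them.

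The 10 genes and the wider list were chosen with earlier results of these data known. The named genes were all 10, up to 2 called genes each way per role with the largest change, VEGFA and CA9 as hypoxia controls, and the 5 genes with profiles closest to that of CYP26A1. FABP5, NR2F1, ALDH1A3, TOP2B, RARA-AS1, HOXA3, PTPRC, CD3E, VIM, the single luminal, fibroblast and basal markers, the genes with a DR5 and those named at low counts were added after their values were seen. Promoter windows are those of RefSeq (GRCh38.p14), and printed sites were placed on GRCh37 by an exact match of the surrounding bases. Figures were drawn with matplotlib 3.10.9.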

Additional observations from a re-analysis of the deposited data

How the results depend on the processing

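Of 150 log2-fold changes of the 10 genes under alternative settings, 142 kept their side of the threshold. The other 8 were lost calls of RARA, CYP26B1 and CRABP2 with libraries left out. No called gene changed direction. RARG and RDH10, called in no fit, fell slightly below 0 in some fits (lowest -0.0048 and -0.00055). With 1 library or 1 replicate number left out, genes called ranged from 4839 to 11257 over all genes (2648 to 5751 higher and 2191 to 5506 lower), from 0 to 2 lower among the 10 genes, and from 16 to 29 higher and 3 to 12 lower in the wider list, with the fewest calls without replicate 1 of both conditions. In that edgeR fit, which holds 4 libraries, CYP26B1 and CRABP2 had log2-fold changes of -1.86 and -0.48. No other tool was run on those libraries. Under upper-quartile scaling the median of all log2-fold changes was 0.19 in place of 0.028. This called 38.1% of genes higher and 21% lower, and left 5 lower genes in the wider list. The replicate block called 11244 genes, 36.6% of all genes higher and 35.2% lower, and changed no call among the 10 genes. In the wider list it called 30 higher and 10 lower. The exact test called 9482 genes and DESeq2 9558, against 9316. Depth limits STRA6, CYP26A1 and RARB, which held at most 12 counts in any normoxia library.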

Other observations

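The DR5 letters in the promoter windows were found for 29 genes, of which 11 were tested, and these are given by value because CYP26A1 and RARB, which belong to the 10 genes gathered around the rise of CYP26A1, are among them. Called higher in hypoxia by edgeR's quasi-likelihood test were CYP26A1, RARB, KRT40 (log2-fold change of 1.17, standard error 0.26), BATF2 (0.86, standard error 0.28) and CFLAR (0.32, standard error 0.10), and called lower were PRSS27 (-0.82, standard error 0.14) and PANK2 (-0.46, standard error 0.075). The other 4 were not called. Of the 11, 45.5% were called higher and 18.2% lower, compared with 29.4% and 31.5% of the 11350 tested genes with a window. These shares are a description, since CYP26A1 and RARB passed the filter only through the hypoxia libraries. Of the 3587 tested genes with ACGTG in a window, 28.5% were called higher, compared with 29.4% of the 11350 tested genes that had a window.

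Genes averaging 100 counts or more numbered 12664, and among them the profiles closest to that of CYP26A1 over the 6 libraries were those of TMEM45A, PTGS1 (cyclooxygenase 1), PNMA2, BEST1 (a chloride channel) and TGFBI (an extracellular matrix protein). The root mean square differences of their centred log2 CPM from that of CYP26A1 were 0.124, 0.165, 0.256, 0.354 and 0.357. The closest, TMEM45A, had 24, 18 and 13 counts under normoxia and 896, 723 and 2192 under hypoxia. CA9, a known hypoxia-responsive gene, rose from 0.610 ± 0.380 to 24.7 ± 5.92 CPM (SD, n = 3).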
